A study of Mus musculus with 4 samples.

Results

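The 10 genes described here encode the main enzymes that remove superoxide and peroxides in mouse cells: the superoxide dismutases Sod1 and Sod2, catalase (Cat), the glutathione peroxidases Gpx1 and Gpx4, the peroxiredoxins Prdx1, Prdx2, Prdx3 and Prdx5, and thioredoxin (Txn1). They were taken by name from the 32285 genes counted, and all 10 were found. Their levels were followed across cell classes and across the sort gates of a single-cell RNA-seq study of the aorta-gonad-mesonephros region (AGM), the embryonic tissue in which blood stem cells first arise. The embryos were C57BL/6J at the E11.5 stage. CD31-positive cells had been sorted into MMPlow and MMPhigh gates by the intensity of TMRM, a dye that gathers in polarised mitochondria, and each gate was represented by 2 libraries, prepared with 10x Genomics chemistry that reads the 3' ends of RNA (the v3 kit). All 4 libraries shared the strain and the age, and the labels name no other genotype or agent. The study asked how gene expression relates to the separation of blood stem cell function by mitochondrial activity. Nothing in the labels says whether the 2 libraries of a gate came from separate embryos. Each p-value of a gate difference below therefore measures only the spread between these libraries, which may be technical. The test of whether gate differences vary between classes holds the library as a block. Its p-values measure the spread of class sums within the same 4 libraries.

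Superoxide is formed when electrons leak from the respiratory chain or are passed to oxygen by NADPH oxidases. Superoxide dismutases turn it into hydrogen peroxide, Sod1 (copper-zinc) mainly in the cytosol and Sod2 (manganese) in the mitochondrial matrix. Hydrogen peroxide is then destroyed by catalase in peroxisomes, by Gpx1 at the expense of glutathione, and by the peroxiredoxins, which are recharged by thioredoxin. Prdx1 and Prdx2 are mainly cytosolic, Prdx3 is mitochondrial, and Prdx5 is found in mitochondria, peroxisomes and the cytosol. Gpx4 reduces lipid peroxides within membranes and so protects cells from ferroptosis. Prdx2, Gpx1 and catalase are known as abundant enzymes of red cells, where haemoglobin oxidation is a steady source of superoxide.

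All 10 are protein-coding genes of the mm10 mouse genome, with positions from GENCODE vM21. Sod1 lies at chr16:90220754-90226329 on the plus strand and Sod2 at chr17:13006846-13040063 on the plus strand. Cat lies at chr2:103453849-103485160 on the minus strand. Gpx1 lies at chr9:108338903-108340343 and Gpx4 at chr10:80047166-80056439, both on the plus strand. The peroxiredoxin genes are spread over 3 chromosomes, with Prdx1 at chr4:116685544-116700822 (plus), Prdx2 at chr8:84969587-84974834 (plus), Prdx3 at chr19:60864051-60874556 (minus) and Prdx5 at chr19:6906697-6910106 (minus). Txn1 lies at chr4:57943373-57956411 on the minus strand. Prdx3 and Prdx5 share chromosome 19, and Prdx1 and Txn1 share chromosome 4, in neither case as neighbours.

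The promoters of Prdx1, Sod1 and Sod2 are shown. Prdx1 and Sod1 are the only members whose windows held the core of the antioxidant response element, the sequence read by Nrf2. Sod2 held 4 GC boxes with neither that core nor an AP-1 site, as did Txn1, which is not shown. Each sequence is the 250 bases upstream of the RefSeq start in GRCm38.p6 (the patched release of mm10), written along the gene's plus strand, at chr4:116685349-116685598 for Prdx1, chr16:90220512-90220761 for Sod1 and chr17:13007589-13007838 for Sod2. Capitals mark matches on either strand to the antioxidant response element core TGACNNNGC, the AP-1 site TGAGTCA, the GATA site AGATAA and the GC box GGGCGG.
Prdx1: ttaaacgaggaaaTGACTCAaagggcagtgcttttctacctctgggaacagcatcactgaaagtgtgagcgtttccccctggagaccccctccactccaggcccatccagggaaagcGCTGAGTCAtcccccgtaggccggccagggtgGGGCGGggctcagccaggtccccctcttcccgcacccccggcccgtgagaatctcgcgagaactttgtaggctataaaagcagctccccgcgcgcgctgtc
Sod1: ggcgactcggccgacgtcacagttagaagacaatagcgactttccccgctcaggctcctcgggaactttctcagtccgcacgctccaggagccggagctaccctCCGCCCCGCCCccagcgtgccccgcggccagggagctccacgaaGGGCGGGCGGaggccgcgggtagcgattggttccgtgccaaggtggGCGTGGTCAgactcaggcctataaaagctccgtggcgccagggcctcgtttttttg
Sod2: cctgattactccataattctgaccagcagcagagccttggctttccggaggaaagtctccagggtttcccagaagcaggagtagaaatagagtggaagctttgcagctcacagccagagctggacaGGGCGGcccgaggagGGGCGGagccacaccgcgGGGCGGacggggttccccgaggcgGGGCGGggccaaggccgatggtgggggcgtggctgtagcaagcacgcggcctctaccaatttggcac
In Prdx1 the response element core began 133 bases before the start as GCTGAGTCA, the core on the opposite strand, and it overlapped an AP-1 site that began at 131 bases. A second AP-1 site began 237 bases before the start and a GC box at 101 bases. In Sod1 the core, GCGTGGTCA, began at 56 bases, and 2 overlapping pairs of GC boxes began between 146 and 98 bases before the start. In Sod2 the 4 GC boxes began at 124, 109, 91 and 67 bases. Over 32851 RefSeq windows of 300 bases (250 before to 50 after a start), 12.4% held the response element core, 5.20% the AP-1 site, 11.2% the GATA site and 35.7% a GC box. No member's window held the GATA site, and that of Prdx2 held a single GC box of these 4 motifs. These matches describe letters in a window and were not tested as binding sites.

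The libraries differed strongly in depth and in what they contained. The deposited matrices held between 4288 and 59928 barcodes and between 51800709 and 120168395 unique molecular identifiers (UMIs, one per captured RNA molecule) per library. After filtering, 15382 and 18157 cells of MMPlow 1 and 2 and 4403 and 3486 cells of MMPhigh 1 and 2 were retained, with medians of 3070, 3631, 3685 and 24044.5 UMIs per cell. The labels give a maximum of 10000 cells per lane for every library, a number that both MMPlow libraries exceeded. The reason, and its part in the gate differences below, was not tested. Any pair of libraries shared 7 to 75 barcode sequences among the retained cells. The cells fell into 27 clusters, of which 21 could be assigned to 10 classes from marker genes and 6, with 1350, 2424, 2445 and 515 cells in MMPlow 1, MMPlow 2, MMPhigh 1 and MMPhigh 2, could not be named. The labelled CD31 sort was not borne out in the MMPhigh libraries: Pecam1, which encodes CD31, stood at 275 and 262 CPM (UMIs scaled to the same total in every library) in MMPlow 1 and 2 but at 24.9 and 22.2 CPM in MMPhigh 1 and 2. Endothelial-like cells numbered 7255, 8271, 19 and 13 in MMPlow 1, MMPlow 2, MMPhigh 1 and MMPhigh 2. The library labels MMPlow and MMPhigh are kept below as names of the libraries. The class make-up and the gate cannot be told apart in sums over all cells.

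Across the 10 classes each enzyme had its own order of levels. Levels are CPM of the UMIs summed per class and library, given as the mean ± SD of all 4 libraries, so that the spread includes any difference between gates. Because the kit counts 3' ends, no length correction was applied, and levels are compared between classes and not between genes. The classes were found by clustering these cells (without the members or the listed pathway genes), and their levels are a description with no test.

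**Figure D1:**
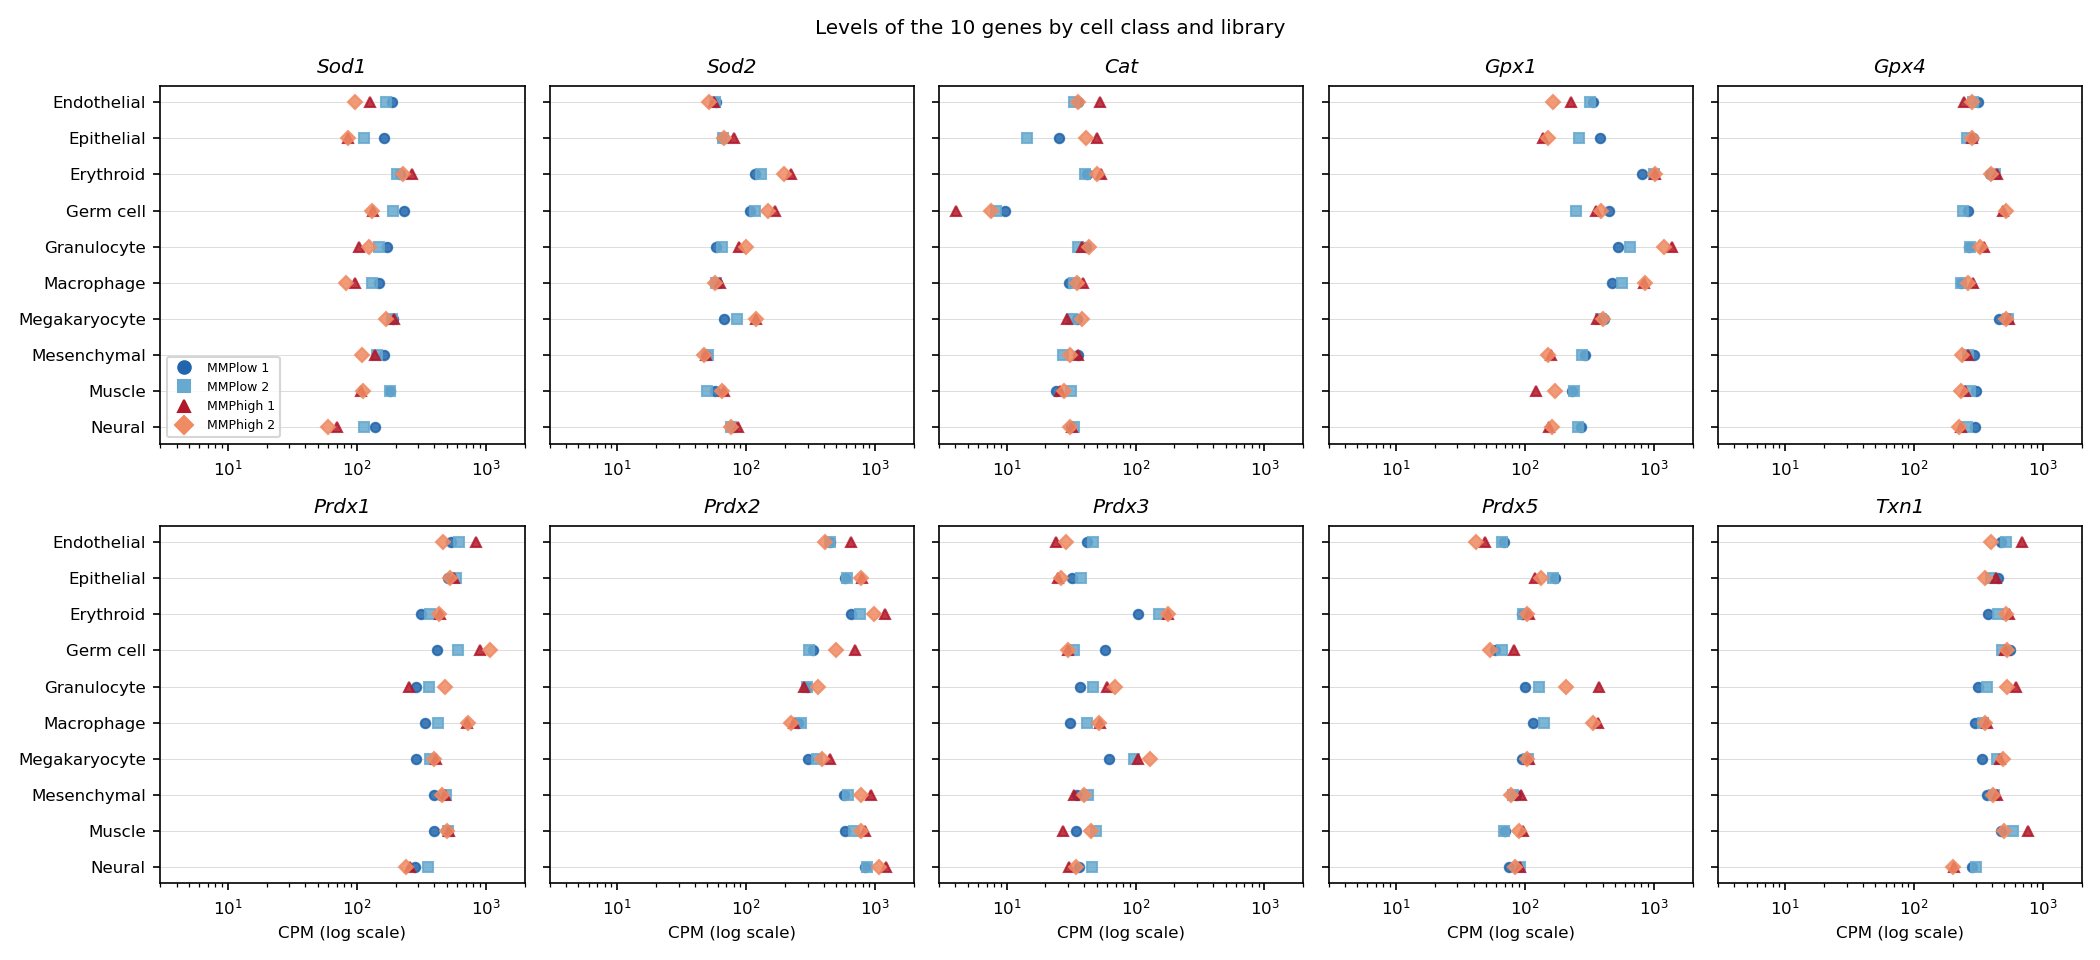
Level of each of the 10 antioxidant enzyme genes (CPM, horizontal log axes) in the 10 cell classes (rows), with 1 point per library and markers that tell MMPlow from MMPhigh libraries. Erythroid-like cells lead for Sod1, Sod2, Cat, Gpx1 and Prdx3, while Prdx5 is highest in macrophage-like cells and Prdx2 in neural-like cells, by the mean of all 4 libraries. The unnamed clusters are not shown.

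Of the superoxide dismutases, Sod1 was highest in erythroid-like cells, at 229 ± 26.7 CPM (SD, n = 4), and the erythroid range of 204 to 267 CPM did not overlap that of the next class, megakaryocyte-like cells (168 to 195 CPM). From there to neural-like cells, the lowest at 95.3 ± 37.3 CPM, each class overlapped the one below it. Sod2 was also highest in erythroid-like cells (167 ± 50.7 CPM), overlapping germ cell-like cells (134 ± 27.8 CPM). Mesenchymal-like cells had the lowest Sod2, 46.9 to 50.4 CPM, a range below that of endothelial-like cells (51.8 to 58.6 CPM) in every library. Sod2 in the remaining 6 classes had means between 59.3 and 97.2 CPM.

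Among the enzymes that remove hydrogen peroxide, Cat stood at 46.9 ± 6.70 CPM (SD, n = 4) in erythroid-like cells and between 27.4 and 39.7 CPM in 8 other classes, whose neighbouring ranges all overlapped. Germ cell-like cells stood apart at 4.08 to 9.69 CPM, from 1, 1, 3 and 20 UMIs in MMPlow 1, MMPlow 2, MMPhigh 1 and MMPhigh 2, below the 24.0 to 31.6 CPM of muscle progenitor-like cells. Gpx1 was highest in erythroid-like (964 ± 107 CPM), granulocyte or mast-like (935 ± 409 CPM) and macrophage-like cells (683 ± 192 CPM). The range of those macrophage-like cells, 475 to 858 CPM, lay above the 363 to 413 CPM of megakaryocyte-like cells. Muscle progenitor-like cells had the lowest Gpx1, 191 ± 55.2 CPM, overlapping neural-like cells at 211 ± 63.5 CPM.

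Gpx4, which acts on membrane lipids, was highest in megakaryocyte-like cells at 510.1 ± 38.5 CPM (SD, n = 4), with a range of 455 to 542 CPM above the 385 to 440.2 CPM of erythroid-like cells. Gpx4 then declined through overlapping ranges to 251 ± 32.5 CPM in neural-like cells.

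The peroxiredoxins divided the classes differently from one another. Prdx1 was highest in germ cell-like cells (749.9 ± 294 CPM, SD, n = 4), followed by endothelial-like cells (614 ± 162 CPM) and macrophage-like cells (555 ± 199 CPM), and lowest in neural-like cells (285 ± 49.9 CPM), with every neighbouring pair overlapping. Prdx2 was instead highest in neural-like cells, at 995 ± 178 CPM, and erythroid-like cells followed at 898 ± 235 CPM. Macrophage-like cells had the lowest Prdx2, 221 to 266 CPM, below the 279.9 to 359.6 CPM of granulocyte or mast-like cells. Prdx3 was highest in erythroid-like cells (153 ± 35.1 CPM) and next in megakaryocyte-like cells (98.7 ± 28.1 CPM), and the other 8 classes had means between 30.3 and 53.5 CPM. Prdx5 was highest in macrophage-like (241 ± 131 CPM), granulocyte or mast-like (204 ± 125 CPM) and epithelial or mesonephric-like cells (119 to 172 CPM), the last of which lay above the 95.6 to 107 CPM of megakaryocyte-like cells. Endothelial-like cells had the lowest Prdx5, 56.6 ± 13.2 CPM.

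Txn1, the protein that recharges the peroxiredoxins, was highest in muscle progenitor-like cells (578 ± 132 CPM, SD, n = 4) and lowest in neural-like cells (246 ± 52.2 CPM), with every neighbouring pair of classes overlapping. Neural-like cells thus had the lowest Sod1, Gpx4, Prdx1 and Txn1 of the 10 classes and the highest Prdx2. Over the class means of the 10 classes, Sod1 and Gpx4 were the most alike pair of members (Pearson r = 0.81 of log2(CPM + 1) across classes), followed by Gpx4 and Prdx3 (0.79). The most negative r was that of Prdx1 and Cat (-0.57), and that of Gpx1 and Prdx2 was -0.49. Germ cell-like cells had both the highest Prdx1 and the lowest Cat, and r without them was not computed. These correlations are over classes that share the same 4 libraries and are given as a description.

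These orders are of the named classes over both gates, and some changed with the gate. In MMPlow alone, Prdx1 was highest in endothelial-like cells at 578 ± 60.9 CPM (SD, n = 2), with germ cell-like cells at 511 ± 134 CPM. Prdx5 was highest there in epithelial or mesonephric-like cells at 169 ± 3.74 CPM, followed by macrophage-like cells at 128 ± 17.7 CPM and granulocyte or mast-like cells at 114 ± 20.8 CPM. Sod1 in MMPlow was 212 ± 29.4 CPM in germ cell-like and 211 ± 9.40 CPM in erythroid-like cells, and Gpx4 was lowest in macrophage-like cells at 231 ± 1.79 CPM. In MMPhigh alone, Gpx1 was highest in granulocyte or mast-like cells at 1280.4 ± 129 CPM and lowest in epithelial or mesonephric-like cells at 144 ± 8.21 CPM, and Prdx5 was highest in macrophage-like cells at 354 ± 21.5 CPM.

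Clusters left unnamed reached levels as high as the leading classes. A cluster led by Hbb-y, an embryonic beta-globin gene, had Prdx2 at 1625, 1507, 1348 and 951 CPM in MMPlow 1, MMPlow 2, MMPhigh 1 and MMPhigh 2, above the 831, 864, 1207 and 1076 CPM of neural-like cells in each library but MMPhigh 2. A cluster with Fabp7 and Igf2 among its leading genes had Txn1 at 626, 708, 686 and 738 CPM and Prdx1 at 607, 824, 917 and 788 CPM, beside 469, 583, 763 and 499 CPM of Txn1 in muscle progenitor-like cells and 417, 606, 904 and 1072 CPM of Prdx1 in germ cell-like cells. A cluster with Ccr2 and Plac8 among its leading genes had Prdx5 at 262, 266, 295 and 257 CPM, above the MMPlow and below the MMPhigh macrophage-like cells.

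As shares of cells, with each cell thinned to 2000 UMIs so that depth was equal, Prdx2 was detected in 67.6, 70.3, 86.2 and 84.2% of neural-like cells of MMPlow 1, MMPlow 2, MMPhigh 1 and MMPhigh 2 and in 39.9, 42.3, 32.2 and 35.2% of macrophage-like cells. Without thinning the shares were 81.0, 84.6, 97.0 and 98.0% and 52.3, 59.2, 83.6 and 95.9%, at medians of 3618.5, 4337.5, 5309 and 20783.5 UMIs per neural-like cell and 2699, 3066, 16423 and 22293.5 UMIs per macrophage-like cell. No class here is known to lack Prdx2, and no background share is given for it.

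For each enzyme, the 3 other genes with the most similar levels over the 10 class means were found among 11165 genes, by Pearson r of log2(CPM + 1), as a description. Sod1 was closest to Ran (0.96), Etf1 (0.96) and Lsm2 (0.95), and Sod2 to Yrdc, Cisd1 and Eef1e1 (each 0.96). Cat was closest to Pcyt1a (0.99), Ccdc9 (0.98) and Fbxo3 (0.96). Gpx1 ran with Ncln (0.98), Gnptab (0.96) and Syngr2 (0.95), and Gpx4 with Nomo1 (0.95) and Rrp8 (0.94). Among peroxiredoxins, Prdx1 was closest to Prdm1, Ube2z and Kifc3 (0.89, 0.89 and 0.88) and Prdx2 to Apoo (0.97), Ppm1l (0.94) and Caprin1 (0.93). Prdx3 was closest to 6030468B19Rik, Gm15915 and Nars (each 0.98), and Prdx5 to P2rx4 (0.95), Mitf (0.94) and Arf3 (0.93). Txn1 was closest to Rps24 (0.91), Ppia (0.91) and E2f3 (0.85).

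Over all retained cells, the summed level of the 10 enzymes was 2502 and 2682 CPM in MMPlow 1 and 2 and 3220 and 2877 CPM in MMPhigh 1 and 2, so the gates did not overlap. The barcodes removed by the filter, which these sums leave out, held 3468, 2928, 3612 and 1637 CPM in the same order. In the retained cells 4 enzymes were higher in MMPhigh (Sod2, Prdx2, Prdx3 and Prdx5) and 1 was lower (Sod1). These 5 of 10 stand beside 53.8% of the 20366 genes tested that passed the same threshold (edgeR adjusted p under 0.05), 27.2% higher and 26.6% lower, so the share of members called was near the background. With a stricter filter on cells (at least 5000 UMIs and 2000 genes) the balance of directions was different. Then 7 members were called, 3 higher (Sod2, Prdx2 and Prdx5) and 4 lower (Sod1, Gpx4, Prdx1 and Txn1). No share of all genes is given for that filter, so this count is not read against a background. A mitochondrial limit of 10% was run as a separate alternative. A log2 fold is MMPhigh over MMPlow throughout, with libraries scaled by TMM.

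Sod1 stood at 182 and 168 CPM in MMPlow 1 and 2 and 128 and 112 CPM in MMPhigh 1 and 2 (log2 fold -0.51 ± 0.10 SE, adjusted p = 0.00363 by edgeR). Sod2 stood at 64.6 and 67.2 CPM in MMPlow 1 and 2 and 107 and 97.9 CPM in MMPhigh 1 and 2 (log2 fold 0.67 ± 0.09 SE, adjusted p = 0.000422 by edgeR). The gates did not overlap for either dismutase, and the cytosolic and the mitochondrial enzyme moved in opposite directions. Prdx2 stood at 475 and 493 CPM in MMPlow 1 and 2 and 920.3 and 781 CPM in MMPhigh 1 and 2 (log2 fold 0.85 ± 0.13 SE, adjusted p = 0.000674 by edgeR). Prdx5 stood at 88.3 and 93.6 CPM in MMPlow 1 and 2 and 165 and 141 CPM in MMPhigh 1 and 2 (log2 fold 0.78 ± 0.11 SE, adjusted p = 0.00044 by edgeR). Prdx3 stood at 47.0 and 61.4 CPM in MMPlow 1 and 2 and 67.4 and 73.0 CPM in MMPhigh 1 and 2 (log2 fold 0.40 ± 0.13 SE, adjusted p = 0.0366 by edgeR). All 3 were higher in both MMPhigh libraries than in either MMPlow library, but the call for Prdx3 was lost without MMPlow 1, without MMPhigh 1 or without MMPhigh 2, with an edgeR adjusted p of up to 0.269. The other 5 did not pass: Gpx1 had a log2 fold of 0.27 (adjusted p = 0.0591 by edgeR) but was called higher by DESeq2, with no doublet removal and with the highest 6% of doublet scores removed, and Txn1, Cat, Prdx1 and Gpx4 had -0.14, 0.08, 0.04 and 0.00.

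Since the gates held different classes, the sums were repeated over equal numbers of cells of each class in every library. Then 2 of 10 members were called, Sod2 and Prdx5, beside 10.7% of 16939 genes, 3.82% higher and 6.9% lower. Equal cells did not give a class the same share of UMIs in every library, because depth per cell rose unevenly between classes. Erythroid-like cells had medians of 3128, 5288, 45974 and 57715 UMIs in MMPlow 1, MMPlow 2, MMPhigh 1 and MMPhigh 2. Neural-like cells had 3618.5, 4337.5, 5309 and 20783.5. With equal UMIs in place of equal cells of each class, 4 members were called, beside 25.3% of genes. With equal cells, Sod2 stood at 72.7 and 77.2 CPM in MMPlow 1 and 2 and 104 and 91.8 CPM in MMPhigh 1 and 2 (log2 fold 0.47 ± 0.12 SE, adjusted p = 0.0383 by edgeR). Prdx5 stood at 85.7 and 101 CPM in MMPlow 1 and 2 and 160.4 and 132 CPM in MMPhigh 1 and 2 (log2 fold 0.73 ± 0.14 SE, adjusted p = 0.0182 by edgeR). Both were higher in each MMPhigh library than in either MMPlow library. Prdx2 stood at 607 and 638 CPM in MMPlow 1 and 2 and 851 and 768 CPM in MMPhigh 1 and 2 and missed the threshold (log2 fold 0.46 ± 0.13 SE, adjusted p = 0.0529 by edgeR), and DESeq2 called it. Of 4 further random draws of the cells, 3 called Prdx2 and 1 lost Sod2. Prdx2 was also called with at least 20 cells per class, at the 10% mitochondrial limit and with no doublet removal. The log2 fold of Sod1 was -0.24 (adjusted p = 0.322). In these balanced sums Pecam1 still had a log2 fold of -1.54 ± 0.13 SE, adjusted p = 0.000472 by edgeR, and its part in the result was not tested. With equal cells of each cluster in place of each class, the log2 fold of Prdx5 was 0.05. Both calls were lost without MMPlow 1 or without MMPlow 2, and that of Sod2 also without MMPhigh 1.

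Within single classes the gate differences were not alike. A test of whether a gene's gate difference varied between classes, in one edgeR fit over all class and library sums with the library as a block, called 9 of 10 members, all but Cat (adjusted p = 0.0645), beside 41.2% of the genes tested. Without MMPlow 1 it called 4 members. The smallest adjusted p by this edgeR test was 3.76e-13 for Prdx5 and the next 2.54e-11 for Gpx1. Class sums of the same libraries, which are not independent replicates, are the units of spread in this test. Of 99 pairs of a member and a class tested, 33 were called, 27 higher and 6 lower in MMPhigh. Over all genes, 15.9% of 117466 pairs of a gene and a class were called, 7.29% higher and 8.58% lower. Prdx2 was called lower in no class, with log2 folds from 0.11 to 1.06 over the 10 classes on the TMM scale. The lowest, in macrophage-like cells, was -0.20 with total UMIs as library size. Gpx1 ranged from -1.15 to 1.31, higher in 2 classes and lower in 3, and Sod1 from -0.92 to 0.51, higher in 1 class and lower in 2. Txn1 was called higher in 3 classes and lower in 1, and the calls of Sod2 (4 classes), Prdx5, Prdx1 and Prdx3 (3 each), Gpx4 and Cat (2 each) were all higher. With total UMIs in place of TMM, 21 pairs were called, 15 higher and 6 lower, so that 71.4% in place of 81.8% of the calls were higher. The share of all pairs of a gene and a class is given for the main fits only, not for total UMIs or the alternatives that follow. With the stricter cell filter 11 of 80 pairs were called, 5 higher and 6 lower (45.5% higher). Without MMPlow 1 there were 8 higher and 5 lower (61.5% higher), and at clustering resolution 0.5 there were 15 higher and 7 lower (68.2% higher). Scaling by TMM placed the median log2 fold of all genes above that of total-UMI scaling by 0.31 in macrophage-like, 0.28 in erythroid-like, 0.23 in granulocyte or mast-like, 0.17 in germ cell-like and 0.14 in megakaryocyte-like cells, and folds are given relative to the TMM median.

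**Figure D2:**
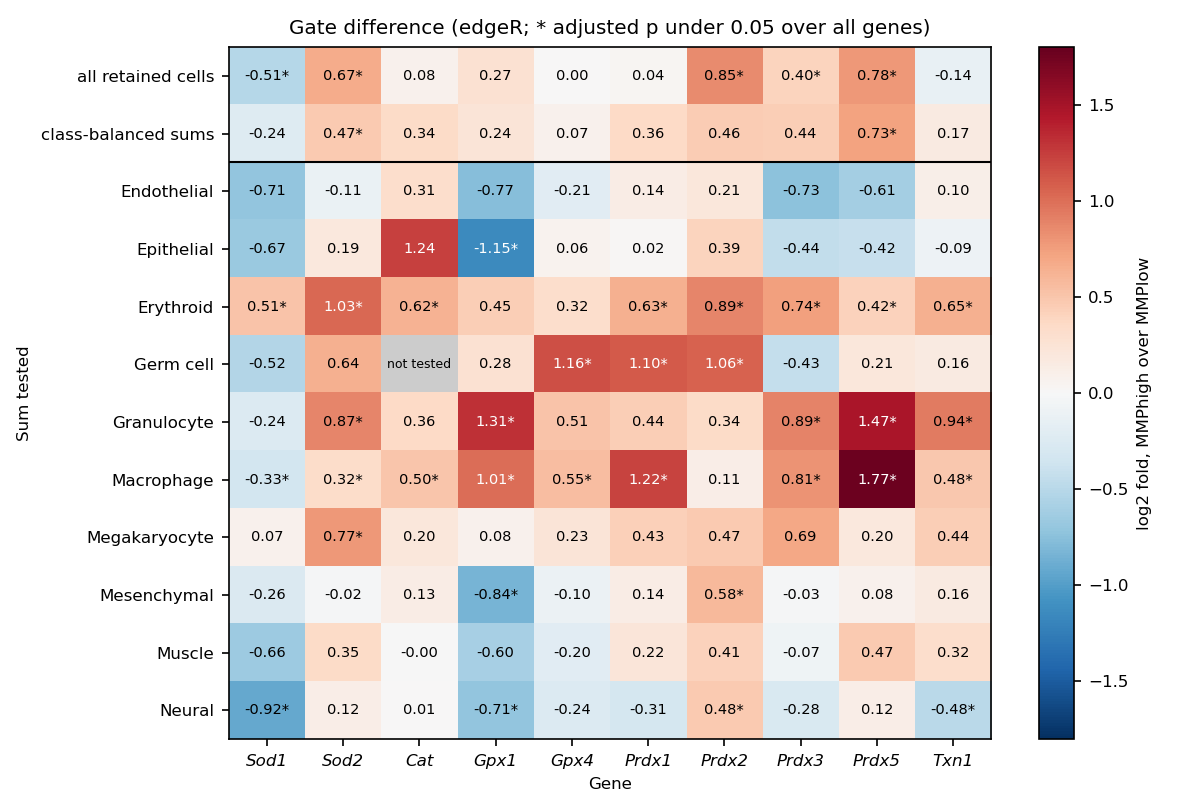
Heat map of the log2 fold MMPhigh over MMPlow (colour scale; edgeR, TMM) of each of the 10 enzyme genes (columns) in the sums of all cells, in the class-balanced sums and in each of the 10 classes (rows), with an asterisk where the adjusted p was under 0.05. Gpx1 runs from -1.15 to 1.31 between classes, while Prdx2 lies between 0.11 and 1.06 in the 10 classes (the lowest, in macrophage-like cells, is -0.20 with total UMIs as library size).

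In the main edgeR fits macrophage-like cells had the most members called, 8 higher and 1 lower in MMPhigh, beside 24.0% and 23.3% of 12857 genes in those directions. DESeq2 called 6 members there and 7 in erythroid-like cells, with no share of all genes given. Prdx5 stood at 116 and 141 CPM in MMPlow 1 and 2 and 369 and 339 CPM in MMPhigh 1 and 2 (log2 fold 1.77 ± 0.12 SE, adjusted p = 6.03e-07 by edgeR). Prdx1 stood at 341 and 430.2 CPM in MMPlow 1 and 2 and 717 and 731 CPM in MMPhigh 1 and 2 (log2 fold 1.22 ± 0.13 SE, adjusted p = 1.67e-05 by edgeR). Gpx1 stood at 475 and 566 CPM in MMPlow 1 and 2 and 834 and 858 CPM in MMPhigh 1 and 2 (log2 fold 1.01 ± 0.12 SE, adjusted p = 4.18e-05 by edgeR). For all 3 the gates were well separated, and the calls were kept with each library left out in turn. The mitochondrial Prdx3 (31.1, 41.7, 52.6 and 51.8 CPM in MMPlow 1, MMPlow 2, MMPhigh 1 and MMPhigh 2) had a log2 fold of 0.81 ± 0.14 SE, adjusted p = 0.000564 by edgeR. Gpx4 (229, 232, 285 and 262 CPM in the same order) had 0.55 ± 0.10 SE, adjusted p = 0.000645 by edgeR. Txn1 (293, 343, 363 and 356 CPM) had 0.48 ± 0.11 SE, adjusted p = 0.00355 by edgeR. These 3 also had gates that did not overlap and kept their calls with each library left out in turn. Cat (log2 fold 0.50) and Sod2 (0.32) were higher and Sod1 (-0.33) lower, each with a call that was lost without 1 or more libraries, MMPlow 1 among them. In CPM the gates overlapped for Sod2 (59.9, 57.9, 62.4 and 57.2 CPM), which was called on the TMM scale. Prdx2 was not called, at 254, 266, 233 and 221 CPM, lower in CPM in both MMPhigh libraries.

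Macrophage-like cells consisted of 2 clusters in different shares by gate. A cluster with F13a1 and Mrc1 among its leading genes held 1249, 1342, 27 and 55 cells of MMPlow 1, MMPlow 2, MMPhigh 1 and MMPhigh 2, and a cluster rich in the complement genes C1qa to C1qc held 28, 93, 284 and 655. Of all genes tested, 25.9% were called in the first and 4.14% in the second. Prdx5 was 109.8, 125, 175 and 204 CPM in the first cluster in that order (log2 fold 0.92 ± 0.15 SE, adjusted p = 0.000198 by edgeR). In the second it was 301, 286, 383 and 355 CPM (log2 fold 0.41 ± 0.16 SE, adjusted p = 0.148 by edgeR). The C1q-rich cells of every library thus had more Prdx5 than the Mrc1 cells of any library, and the fold within either cluster was smaller than the 1.77 of the class. Gpx1 was 465, 539.8, 681 and 843 CPM in the Mrc1 cluster and 779.8, 812, 845 and 859.8 CPM in the C1q-rich one, where it was not called (log2 fold 0.16 ± 0.14 SE, adjusted p = 0.67 by edgeR). Prdx1 was called in both, at 338, 424, 735 and 759 CPM (log2 fold 1.15 ± 0.17 SE, adjusted p = 6.86e-05 by edgeR) and 414, 488, 716 and 728 CPM (log2 fold 0.70 ± 0.15 SE, adjusted p = 0.00174 by edgeR). Gpx4 was called in neither, with log2 folds of 0.22 in the Mrc1 cluster (adjusted p = 0.289 by edgeR) and -0.05 in the C1q-rich one (adjusted p = 0.951 by edgeR). Prdx3 was called in the Mrc1 cluster (1.03, adjusted p = 0.000868 by edgeR) but not in the C1q-rich one (0.35, adjusted p = 0.619 by edgeR). Sod1 was called lower in the C1q-rich cluster only, at 138, 148, 95.6 and 79.4 CPM (log2 fold -0.69 ± 0.19 SE, adjusted p = 0.0216 by edgeR), and whether the 2 clusters differed was not tested. At a coarser clustering (resolution 0.5) the macrophage-like class was a C1q-led cluster of 219, 352, 566 and 780 cells, without the cluster that had F13a1 among its leading genes, and kept only Prdx1 higher and Sod1 lower of its calls. The log2 folds of Gpx1, Gpx4 and Txn1 were then -0.052, -0.085 and -0.097. With the stricter cell filter 3 members were called, Prdx1 and Prdx5 higher and Sod1 lower. With total UMIs in place of TMM, 6 members were called: Gpx1, Gpx4, Prdx1, Prdx3 and Prdx5 higher and Sod1 lower. No share of all genes is given for resolution 0.5, the stricter cell filter or total UMIs in these cells.

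**Figure D3:**
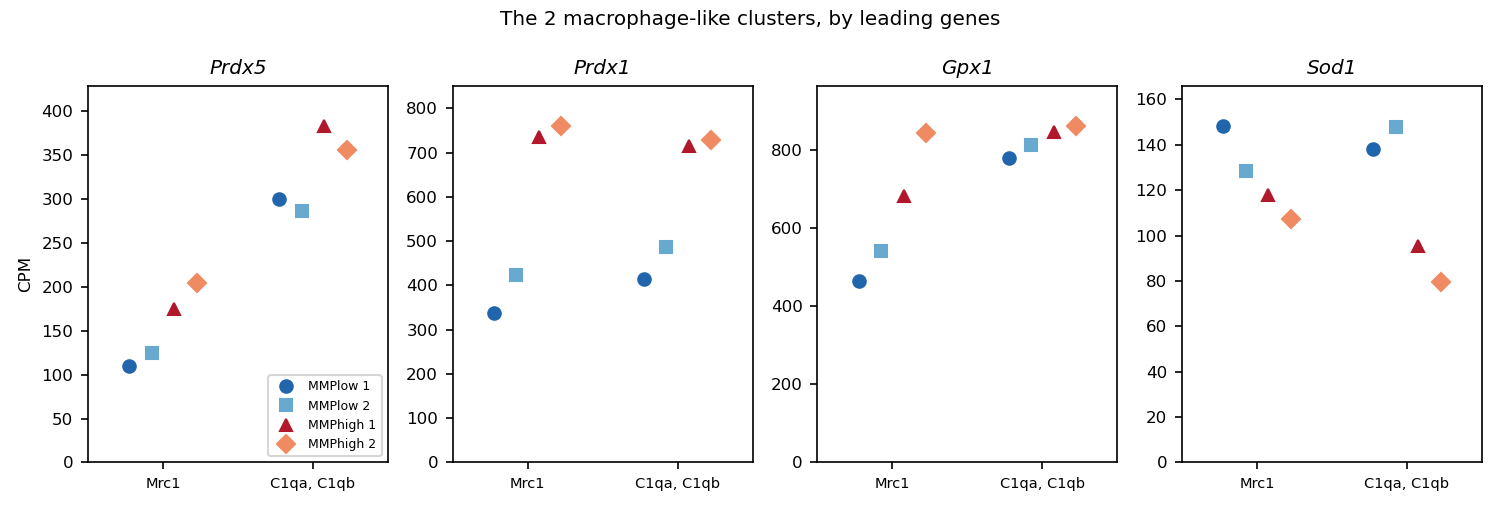
Prdx5, Gpx1, Prdx1 and Sod1 (CPM, linear axes) in the cluster with Mrc1 among its leading genes and the C1q-rich cluster of macrophage-like cells, with 1 point per library. The C1q-rich cluster has more Prdx5 in every library (286 to 383 CPM) than the Mrc1 cluster in any (110 to 204 CPM).

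Other values moved with the macrophage result. The 13 macrophage markers summed to 4209, 4815, 9301 and 9546 CPM in MMPlow 1, MMPlow 2, MMPhigh 1 and MMPhigh 2, and the 14 endothelial markers to 1087, 905, 94.0 and 92.1 CPM. Median UMIs per macrophage-like cell were 2699, 3066, 16423 and 22293.5. Malat1 stood at 8309, 8145, 5033 and 4901 CPM, ribosomal protein genes took 13.3, 13.2, 15.8 and 16.5% of the UMIs and the median mitochondrial share was 6.23, 6.99, 4.79 and 4.81%. Their part in the result was not tested.

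Erythroid-like cells had 8 of 10 members called, all higher in MMPhigh, beside 12.0% of 12247 genes higher and 13.0% lower. The summed level of the 10 enzymes was 3104 and 3638 CPM in MMPlow 1 and 2 and 4455 and 4111 CPM in MMPhigh 1 and 2. Sod2 stood at 118 and 131 CPM in MMPlow 1 and 2 and 223 and 196 CPM in MMPhigh 1 and 2 (log2 fold 1.03 ± 0.16 SE, adjusted p = 0.00235 by edgeR). Cat stood at 42.1 and 40.4 CPM in MMPlow 1 and 2 and 54.4 and 50.6 CPM in MMPhigh 1 and 2 (log2 fold 0.62 ± 0.13 SE, adjusted p = 0.00766 by edgeR). Prdx2, a major red cell protein, stood at 653 and 769 CPM in MMPlow 1 and 2 and 1183 and 987 CPM in MMPhigh 1 and 2 (log2 fold 0.89 ± 0.22 SE, adjusted p = 0.016 by edgeR). The gates did not overlap for these 3 enzymes. Sod2 and Cat kept their calls with each library left out in turn, whereas Prdx2 lost its call without MMPlow 1 or without MMPhigh 1. Prdx3 (0.74), Txn1 (0.65), Prdx1 (0.63), Sod1 (0.51) and Prdx5 (0.42) were also called, and each call was lost without MMPlow 1. Gpx1 at 804, 1008, 1015 and 1028 CPM and Gpx4 at 385, 426, 440.2 and 396 CPM were not called.

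The erythroid count depended on the processing, and no share of all genes is given for the alternatives that follow. The calls changed with the library left out. Log2 folds were then 0.90 to 1.20 for Sod2, 0.59 to 0.70 for Cat and 0.72 to 1.11 for Prdx2. Only Sod2 was called when clusters were named without a rule on detected markers or were built from all variable genes, 0 members at clustering resolution 2, and Prdx2 and Sod2 with total UMIs as library size. The stricter cell filter gave 3 calls, Cat, Prdx1 and Sod2. The naming rule left the Hbb-y-led cluster of 38, 58, 1250 and 182 cells unnamed. In that cluster Gpx1 stood at 1445, 1455, 733 and 602 CPM with a log2 fold of -1.37 ± 0.35 SE, adjusted p = 0.0126 by edgeR. Prdx2 was not called there (log2 fold -0.69 ± 0.35 SE, adjusted p = 0.518 by edgeR), although both genes were lower in each MMPhigh library than in either MMPlow library. In that cluster 1.44% of genes were called.

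Haemoglobin RNA, the product of 7 genes, was lower in sum in the MMPhigh erythroid-like cells, where the called enzymes were higher. Its sum was 4939.6, 2927, 1965 and 1365 CPM in MMPlow 1, MMPlow 2, MMPhigh 1 and MMPhigh 2, with median UMIs per cell of 3128, 5288, 45974 and 57715. Of the 7 genes 1 was called higher and 2 lower, beside 12.0% and 13.0% of all genes. Pecam1 stood at 62.0, 47.5, 20.4 and 13.7 CPM, and the median mitochondrial share was 6.71, 4.41, 2.64 and 2.80%. Malat1, a nuclear RNA, stood at 4465, 3231, 1757 and 1603 CPM, and ribosomal protein genes took 18.3, 20.3, 23.3 and 23.4% of the UMIs. The part of these differences in the result was not tested. The Prdx2 ranges of neural-like and erythroid-like cells overlapped, while the haemoglobin sum in neural-like cells was 925, 99.2, 41.9 and 442 CPM.

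**Figure D4:**
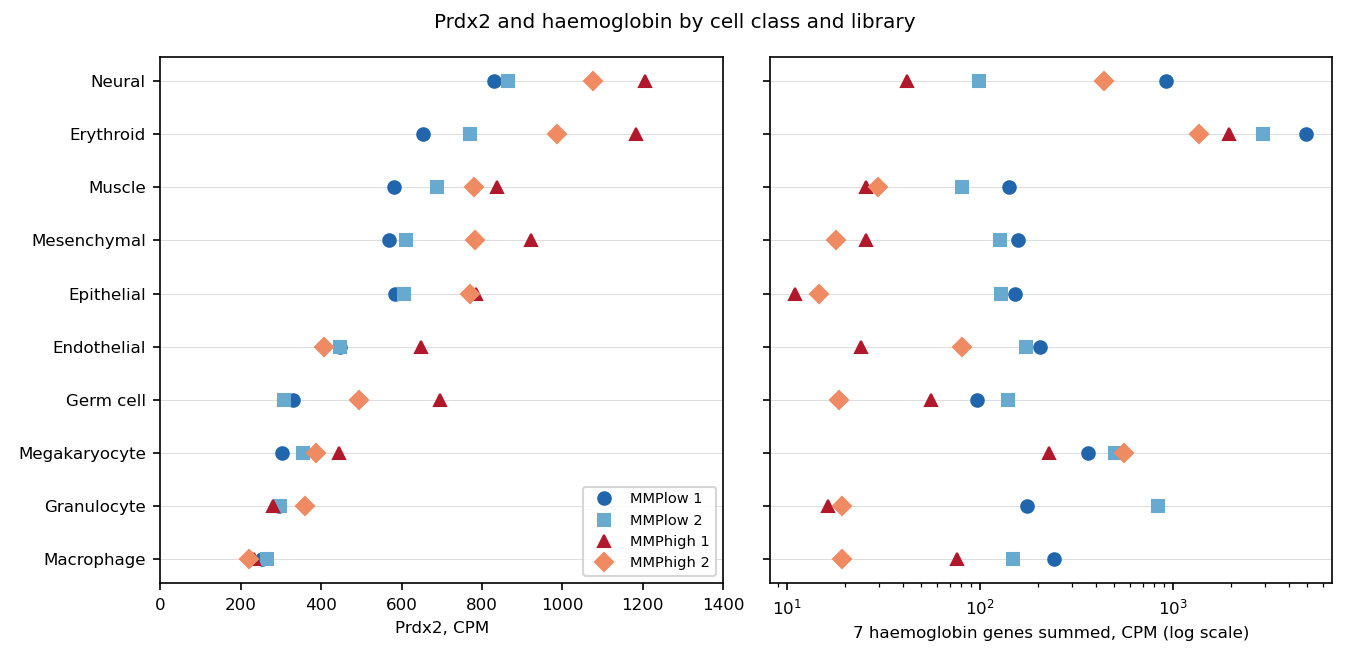
Prdx2 (left, CPM, linear axis) and the summed level of 7 haemoglobin genes (right, CPM, log axis) in each cell class, with 1 point per library. Prdx2 is high in both neural-like and erythroid-like cells, whereas haemoglobin is highest in erythroid-like cells among the named classes. The unnamed clusters, with the Hbb-y-led cluster among them, are not shown.

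Neural or neural crest-like cells had 1 member higher and 3 lower in MMPhigh, beside 8.34% of 14600 genes higher and 9.44% lower. Sod1 stood at 139 and 113 CPM in MMPlow 1 and 2 and 69.9 and 59.3 CPM in MMPhigh 1 and 2 (log2 fold -0.92 ± 0.13 SE, adjusted p = 0.00151 by edgeR). Gpx1 stood at 273 and 259.8 CPM in MMPlow 1 and 2 and 152 and 161 CPM in MMPhigh 1 and 2 (log2 fold -0.71 ± 0.10 SE, adjusted p = 0.00147 by edgeR). Txn1 stood at 280.4 and 301 CPM in MMPlow 1 and 2 and 204 and 199 CPM in MMPhigh 1 and 2 (log2 fold -0.48 ± 0.10 SE, adjusted p = 0.00951 by edgeR). All 3 were lower in both MMPhigh libraries than in either MMPlow library. The calls of Sod1 and Gpx1 held with each library left out in turn, and that of Txn1 was lost without MMPlow 2. Prdx2 stood at 831 and 864 CPM in MMPlow 1 and 2 and 1207 and 1076 CPM in MMPhigh 1 and 2 (log2 fold 0.48 ± 0.10 SE, adjusted p = 0.013 by edgeR), higher in both MMPhigh libraries, with a call lost without MMPlow 1 or without MMPlow 2.

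Within the neural clusters fewer genes were called, 5.95% in the Nrxn3 cluster, 10.1% in the Neurog2 cluster and 1.79% in the Neurod1 cluster described here. A cluster with Nrxn3 among its leading genes, of 176, 194, 596 and 830 cells in MMPlow 1, MMPlow 2, MMPhigh 1 and MMPhigh 2, had Sod1 at 130.5, 109, 61.4 and 54.9 CPM (log2 fold -1.03 ± 0.14 SE, adjusted p = 0.00147 by edgeR) and a Gpx1 log2 fold of -0.70 ± 0.11 SE, adjusted p = 0.00354 by edgeR. A cluster with Neurog2, a proneural transcription factor, among its leading genes held 241, 275, 138 and 210 cells. There Gpx1 had a log2 fold of -0.85 ± 0.14 SE, adjusted p = 0.00361 by edgeR. Prdx2, at 726, 768, 1272 and 1126 CPM, had a log2 fold of 0.72 ± 0.13 SE, adjusted p = 0.00588 by edgeR. Prdx2 was not called in the Nrxn3 cluster (log2 fold 0.27, adjusted p = 0.186 by edgeR) or the Neurod1 cluster (0.33, adjusted p = 0.484 by edgeR). Sod1 was 143, 99.97, 81.8 and 57.0 CPM in the Neurog2 cluster, short of the threshold (log2 fold -0.79 ± 0.22 SE, adjusted p = 0.053 by edgeR). Txn1 had a log2 fold of -0.54 ± 0.13 SE, adjusted p = 0.0213 by edgeR, in the Neurog2 cluster and of -0.33 ± 0.11 SE, adjusted p = 0.118 by edgeR, in the Nrxn3 cluster. In the remaining, smaller cluster, with Neurod1 but also Afp and Alb among its leading genes, the lowest adjusted p of a member was that of Sod1 (log2 fold -1.06 ± 0.24 SE, adjusted p = 0.0576 by edgeR), short of the threshold. Among the class's 4 calls, that of Sod1 was the one kept both at resolution 2 and with clustering on all variable genes.

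**Figure D5:**
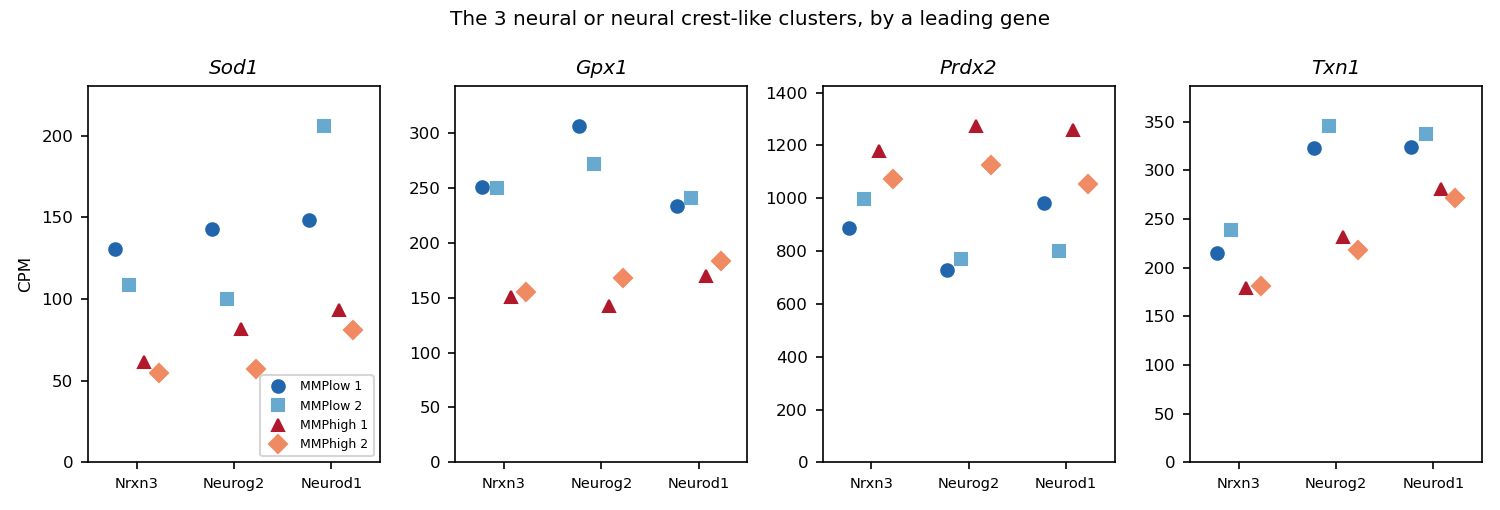
Sod1, Gpx1, Txn1 and Prdx2 (CPM, linear axes) in the 3 neural-like clusters, named by 1 of their leading genes (Nrxn3, Neurog2 and Neurod1), with 1 point per library. Sod1 is lower in both MMPhigh libraries than in either MMPlow library in all 3 clusters, at 54.9 to 61.4 against 109 to 130 CPM in the Nrxn3 cluster.

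Endothelial marker RNA moved with the neural result. The 14 endothelial markers summed to 866, 704, 26.6 and 26.0 CPM in neural-like cells of MMPlow 1, MMPlow 2, MMPhigh 1 and MMPhigh 2, against 5923, 6217, 5583 and 7207 CPM in endothelial-like cells, and all 14 genes had UMIs in the neural-like cells of every library. Endothelial-like cells of MMPlow 1 and 2 had 187 and 168 CPM of Sod1 and 336 and 318 CPM of Gpx1. The 15 neural markers summed to 5324, 5215, 7098 and 7496 CPM, and median UMIs per cell were 3618.5, 4337.5, 5309 and 20783.5. Malat1 stood at 15653, 14981, 12958 and 11395 CPM, ribosomal protein genes took 13.7, 13.1, 10.4 and 10.3% of the UMIs and the median mitochondrial share was 2.05, 2.03, 3.08 and 3.09%. Their part in the result was not tested.

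Mesenchymal-like cells had Gpx1 lower and Prdx2 higher in MMPhigh, beside 11.4% of 15029 genes lower and 6.75% higher. Gpx1 stood at 294 and 277 CPM in MMPlow 1 and 2 and 159 and 150.5 CPM in MMPhigh 1 and 2 (log2 fold -0.84 ± 0.09 SE, adjusted p = 0.000144 by edgeR). Prdx2 stood at 570 and 611 CPM in MMPlow 1 and 2 and 922 and 784 CPM in MMPhigh 1 and 2 (log2 fold 0.58 ± 0.12 SE, adjusted p = 0.00519 by edgeR). The gates did not overlap for either, and the call of Prdx2 was lost without MMPlow 1 or without MMPlow 2 while that of Gpx1 was kept with each library left out in turn. In a cluster with Col2a1 and Sox9, genes of cartilage precursors, among its leading genes (9.15% of genes called), Gpx1 had a log2 fold of -0.92 ± 0.13 SE, adjusted p = 5.03e-05 by edgeR. Prdx2 had 0.46 ± 0.13 SE, adjusted p = 0.0335 by edgeR there, and Sod1 -0.51 ± 0.15 SE, adjusted p = 0.0354 by edgeR. In the other clusters of the class the edgeR adjusted p of Sod1 was 0.121 to 0.670, and in the cluster where it was 0.670 Gpx1 (adjusted p = 0.173) and Prdx2 (adjusted p = 0.396) were not called either. Endothelial markers summed to 838, 699.7, 56.5 and 57.4 CPM in mesenchymal-like cells of MMPlow 1, MMPlow 2, MMPhigh 1 and MMPhigh 2, with Sox18 at 0 in MMPhigh 1 and Sox17 at 0 in MMPhigh 2. Median UMIs per cell were 3437, 3949, 14504 and 21816 and Malat1 stood at 9093, 8385, 5891 and 5729 CPM in that order. Their part in the result was not tested. Epithelial or mesonephric-like cells likewise had Gpx1 lower in MMPhigh, their single call beside 6.26% of 8465 genes lower and 6.9% higher. It stood at 380.1 and 265 CPM in MMPlow 1 and 2 and 138 and 150.01 CPM in MMPhigh 1 and 2 (log2 fold -1.15 ± 0.22 SE, adjusted p = 0.00246 by edgeR), and the call was kept with each library left out in turn. Endothelial markers summed to 836, 827, 38.8 and 61.8 CPM in these cells, and their part in the result was not tested.

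Granulocyte or mast-like cells (759, 975, 14 and 37 cells) had 5 members higher in MMPhigh, beside 3.38% of 10825 genes higher and 5.3% lower. Prdx5 stood at 99.7 and 129 CPM in MMPlow 1 and 2 and 379 and 209 CPM in MMPhigh 1 and 2 (log2 fold 1.47 ± 0.30 SE, adjusted p = 0.0123 by edgeR). Gpx1 stood at 529 and 651 CPM in MMPlow 1 and 2 and 1372 and 1189 CPM in MMPhigh 1 and 2 (log2 fold 1.31 ± 0.30 SE, adjusted p = 0.0221 by edgeR). Both were higher in each MMPhigh library than in either MMPlow library. Txn1 (log2 fold 0.94, adjusted p = 0.0499), Prdx3 (0.89, adjusted p = 0.0493) and Sod2 (0.87, adjusted p = 0.0387) were called by the same edgeR test. All 5 calls were lost without MMPlow 1, without MMPlow 2 and with the stricter cell filter. Those of Sod2 and Prdx3 were also lost without MMPhigh 2. With 1 library left out the log2 fold was 1.15 to 1.83 for Prdx5 and 1.15 to 1.47 for Gpx1. With total UMIs as library size, and also by DESeq2, only Gpx1 and Prdx5 were called, with no share of all genes given. Median UMIs per cell were 2772, 3287, 7418 and 32077 and Pecam1 stood at 202, 184, 104 and 60.8 CPM in MMPlow 1, MMPlow 2, MMPhigh 1 and MMPhigh 2. Malat1 stood at 8379, 7385, 4664 and 3482 CPM, ribosomal protein genes took 13.4, 14.3, 15.2 and 21.6% of the UMIs and the median mitochondrial share was 6.78, 7.05, 4.53 and 3.80%. The granulocyte markers summed to 5456, 5700.3, 31159 and 6647 CPM, with MMPhigh 1 far above the other libraries, and their part in the result was not tested.

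Germ cell-like cells (28, 29, 77 and 51 cells) had 3 of 9 tested members higher in MMPhigh, beside 4.34% of 6865 genes higher and 3.12% lower. Cat fell below the count filter. Gpx4 stood at 262 and 241 CPM in MMPlow 1 and 2 and 489.6 and 512 CPM in MMPhigh 1 and 2 (log2 fold 1.16 ± 0.24 SE, adjusted p = 0.00306 by edgeR). Prdx1 stood at 417 and 606 CPM in MMPlow 1 and 2 and 904 and 1072 CPM in MMPhigh 1 and 2 (log2 fold 1.10 ± 0.23 SE, adjusted p = 0.00306 by edgeR). Prdx2 stood at 329 and 307 CPM in MMPlow 1 and 2 and 695 and 495 CPM in MMPhigh 1 and 2 (log2 fold 1.06 ± 0.25 SE, adjusted p = 0.00858 by edgeR). The gates did not overlap for these 3 enzymes, and all 3 calls were lost without MMPlow 1. The call of Prdx2 was also lost without MMPlow 2 or without MMPhigh 1. In MMPlow 1, MMPlow 2, MMPhigh 1 and MMPhigh 2, median UMIs per cell were 3121, 3939, 3958 and 48946. Malat1 stood at 3594, 3337, 2401 and 1673 CPM, ribosomal protein genes took 14.7, 13.996, 22.0 and 20.9% of the UMIs and the median mitochondrial share was 8.03, 9.33, 2.97 and 3.88%. Germ cell markers summed to 1812, 2017, 5091 and 4903 CPM and endothelial markers to 1850.4, 764, 190.4 and 189.9 CPM in MMPlow 1, MMPlow 2, MMPhigh 1 and MMPhigh 2, and their part in the result was not tested.

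In megakaryocyte-like cells, the platelet precursors, Sod2 was the single member called, beside 4.08% of 11970 genes higher and 7.44% lower. It stood at 67.4 and 84.3 CPM in MMPlow 1 and 2 and 118 and 119 CPM in MMPhigh 1 and 2 (log2 fold 0.77 ± 0.17 SE, adjusted p = 0.0118 by edgeR), with gates that did not overlap and a call lost without MMPlow 1 or with the stricter cell filter. With a mitochondrial limit of 10%, 5 members were called, all higher: Prdx1, Prdx2, Prdx3, Sod2 and Txn1. The calls also changed without MMPlow 2, and no share of all genes is given for either setting. In these cells Pecam1 was 137, 111, 61.8 and 55.4 CPM and Malat1 12705, 11138, 6021 and 4441 CPM in MMPlow 1, MMPlow 2, MMPhigh 1 and MMPhigh 2. The median mitochondrial share was 6.30, 6.01, 2.88 and 3.59%, and median UMIs per cell were 2890, 3657, 3613 and 37917. The 11 megakaryocyte markers summed to 11525, 13712, 13325 and 11098 CPM and the 14 endothelial markers to 1227, 1014, 361 and 365 CPM, with Cldn5, Sox17 and Sox18 at 0 in both MMPhigh libraries, and their part in the result was not tested.

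In the main fits no member was called in endothelial-like cells, where 19 and 13 MMPhigh cells were available and 0.496% of 14906 genes passed. By edgeR 3 members (Gpx1, Sod1 and Prdx5) had an unadjusted p under 0.05 there, and DESeq2 called 1, Gpx1. Gpx1 stood at 336 and 318 CPM in MMPlow 1 and 2 and 227 and 165 CPM in MMPhigh 1 and 2 (log2 fold -0.77 ± 0.21 SE, adjusted p = 0.164 by edgeR). No member was called by the main edgeR fit in muscle progenitor-like cells either, beside 1.52% of 9702 genes. There 4 members (Prdx2, Gpx1, Sod1 and Prdx5) had an unadjusted p under 0.05, and DESeq2 called 0. For neither class is a share of all genes given at the unadjusted threshold.

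The partner genes of these enzymes were read from 6 lists in the class-balanced sums. There all genes tested had a median log2 fold of 0.01, and 3.82% of 16939 genes were higher and 6.9% lower. In these sums cells but not UMIs were equal per class, and Pecam1 was still lower in MMPhigh (log2 fold -1.54). The Nrf2 pathway, which controls many antioxidant genes, had 4 of 14 genes higher and 1 lower in MMPhigh, with a median log2 fold of 0.35. Hmox1, which breaks down haem, was 12.0, 13.6, 40.5 and 29.8 CPM, a log2 fold of 1.53 ± 0.19 SE and an adjusted p of 0.00422 by edgeR. Ftl1, the ferritin light chain that stores iron, was 1244, 1257, 2226 and 1932 CPM, a log2 fold of 0.82 ± 0.14 SE and an adjusted p of 0.0116 by edgeR. Nfe2l1, a transcription factor related to Nrf2, was 104, 86.7, 49.3 and 50.3 CPM, a log2 fold of -0.85 ± 0.11 SE and an adjusted p of 0.00418 by edgeR. The gates did not overlap for these 3 genes, and Nfe2l1 had a log2 fold below 0 in all 10 classes. Hmox1 was called in macrophage-like cells (log2 fold 2.32), the class in which its level was highest, and not in the other 8 classes in which it was tested. Whether its fold differed between classes was not tested. In mesenchymal-like cells 2 of 14 Nrf2 pathway genes were higher and 3 lower (median -0.26), beside 6.75% and 11.4% of all genes. Neural-like cells had 2 of 13 higher and 3 lower (median -0.05), beside 8.34% and 9.44%. Erythroid-like cells had 4 of 13 higher and 1 lower (median 0.37), beside 12.0% and 13.0%.

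The oxidant sources had 3 of 9 tested genes higher and 1 lower, with a median of 0.45. Rac2, a small GTPase that activates the phagocyte NADPH oxidase, was 60.3, 77.3, 114 and 105 CPM, a log2 fold of 0.74 ± 0.14 SE and an adjusted p of 0.0164 by edgeR. Ncf1, a subunit of that oxidase, was 25.9, 26.3, 45.4 and 34.5 CPM, a log2 fold of 0.69 ± 0.16 SE and an adjusted p of 0.0332 by edgeR. Nox4, an oxidase of non-phagocytic cells, was 28.4, 28.5, 19.0 and 20.1 CPM, a log2 fold of -0.46 ± 0.12 SE and an adjusted p of 0.0495 by edgeR. In the balanced sums Rac2 and Ncf1 were higher and Nox4 lower in both MMPhigh libraries than in either MMPlow library, but single classes went both ways. Rac2 was called higher in macrophage-like (log2 fold 1.56) and granulocyte or mast-like cells (1.59) and lower in endothelial-like (-4.37), epithelial or mesonephric-like (-4.74), mesenchymal-like (-2.48) and neural-like cells (-1.16). Ncf1 was called higher in macrophage-like cells (0.99) and lower in mesenchymal-like cells (-2.39). Nox4 was called lower in erythroid-like, macrophage-like and megakaryocyte-like cells, at class means of 2.87, 4.88 and 5.54 CPM, and was not called in mesenchymal-like cells (-0.17) or endothelial-like cells (-1.19), at 61.3 and 69.5 CPM. In macrophage-like cells 6 of 8 tested oxidant source genes were higher and 1 lower, beside 24.0% and 23.3% of all genes tested there. In neural-like cells 0 were higher and 3 of 8 lower, beside 8.34% and 9.44% of all genes. In mesenchymal-like cells 0 were higher and 5 of 8 lower, beside 6.75% and 11.4% of all genes. In those mesenchymal-like cells Rac2 and Ncf1 had class means of 21.1 and 5.005 CPM. All 7 haemoglobin genes were also lower there (median log2 fold -2.69), and Pecam1 stood at 63.6, 51.4, 1.24 and 1.4999 CPM in MMPlow 1, MMPlow 2, MMPhigh 1 and MMPhigh 2. Their part in the result was not tested.

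In the thioredoxin and glutaredoxin system 1 of 19 genes was higher and 1 lower, with a median of 0.13. Txn2, the mitochondrial thioredoxin that serves Prdx3, was 73.0, 86.6, 118 and 118 CPM, a log2 fold of 0.64 ± 0.12 SE and an adjusted p of 0.0149 by edgeR. Msrb3, a methionine sulfoxide reductase, was 23.7, 21.1, 13.4 and 13.9 CPM, a log2 fold of -0.63 ± 0.14 SE and an adjusted p of 0.0279 by edgeR. In the glutathione and NADPH supply 2 of 23 genes were higher and 0 lower, with a median of 0.17. Gsto1, a glutathione transferase, was 35.2, 39.9, 66.2 and 62.2 CPM, a log2 fold of 0.85 ± 0.12 SE and an adjusted p of 0.00488 by edgeR. Pgd, a pentose phosphate enzyme that makes NADPH, was 62.5, 57.3, 85.8 and 78.6 CPM, a log2 fold of 0.54 ± 0.11 SE and an adjusted p of 0.0195 by edgeR. The gates did not overlap for these 4 genes. Msrb3 was called lower in erythroid-like, megakaryocyte-like, macrophage-like and epithelial or mesonephric-like cells, at class means of 3.11, 4.14, 5.63 and 17.0 CPM. It was not called in endothelial-like (log2 fold 0.00036) or mesenchymal-like cells (-0.20), at 60.3 and 55.2 CPM. Pgd was called higher in erythroid-like (0.66), granulocyte or mast-like (1.60), macrophage-like (1.06) and megakaryocyte-like cells (0.66), and in no other class. Of the other peroxiredoxins, glutathione peroxidases and dismutase genes, 1 of 6 tested was higher and 0 lower in the balanced sums (median 0.08), and DESeq2 called 0. Gpx3, the secreted glutathione peroxidase, was 18.2, 16.7, 23.9 and 23.5 CPM, a log2 fold of 0.53 ± 0.13 SE and an adjusted p of 0.0408 by edgeR. Among single classes Gpx3 was called only in macrophage-like cells (log2 fold 1.72), where its level was highest, and its folds elsewhere had both signs. Over all retained cells 0 of these 6 genes were higher and 3 lower (median -0.10), beside 27.2% and 26.6% of all genes.

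Selenoprotein synthesis, on which Gpx1 and Gpx4 depend for their selenocysteine, had 0 of 8 genes called by edgeR (median -0.01). 1 gene had an unadjusted p under 0.05, and DESeq2 called 0. The 7 haemoglobin genes had 0 called by edgeR (median -0.21), DESeq2 called 0, and 0 had an unadjusted p under 0.05. In macrophage-like cells 10 of 20 glutathione and NADPH genes were higher and 2 lower, and 8 of 19 thioredoxin and glutaredoxin genes were higher and 4 lower, beside 24.0% of all genes higher and 23.3% lower. There 7 of 13 Nrf2 pathway genes were higher and 2 lower, and 3 of 6 of the other peroxiredoxin, glutathione peroxidase and dismutase genes were higher and 3 lower. Of 8 selenoprotein synthesis genes 1 was higher and 2 were lower, and of the 7 haemoglobin genes 0 were higher and 5 lower.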

How the data were processed

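Single-cell RNA-seq of 4 libraries was analysed, 2 labelled MMPlow and 2 labelled MMPhigh. The deposited matrices hold whole-number UMI counts per gene and barcode with no normalization, from Cell Ranger 7.0.1 per the file headers. Cell Ranger 2.1.1 and mm10 are named in the submitters' processing notes, and the difference between these versions was not resolved. The deposited barcodes begin at 500 UMIs, or at 962 in MMPlow 1.

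Barcodes with at least 2000 UMIs, at least 1000 genes and under 25% of UMIs from 13 mitochondrially encoded genes were kept. Scrublet doublets were removed at an expected rate of 0.8% per 1000 cells, which took out 1318, 1422, 0 and 0 cells of MMPlow 1, MMPlow 2, MMPhigh 1 and MMPhigh 2. This rate was adopted after the default rate had marked 2, 996, 0 and 68 cells and 5 settings had been tried. In the MMPhigh libraries the caller was taken not to have worked, so doublets may remain there. Cells were clustered (scanpy 1.11.5, Python 3.11.15, 2000 variable genes without the members and the listed pathway genes, 30 components, 15 neighbours, Leiden resolution 1). Clusters were named from 12 lists of markers. A rule on the markers detected per cell was added to the naming after the haemoglobin-led cluster and its levels had been seen.

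UMIs were summed per library over all cells, over equal numbers of cells per class, and per class with at least 10 cells in every library, and given as CPM. Gates were compared with edgeR 4.0.16 in R 4.3.3 (TMM, filterByExpr, robust quasi-likelihood F-test, two-sided, Benjamini-Hochberg over all genes tested, threshold 0.05), with DESeq2 1.42.0 as an alternative. The standard error of a log2 fold is its size divided by the square root of F. On simulated counts with 200 genes changed by a log2 fold of 1, edgeR recovered 77.5% in the sums of all cells, 64% in neural-like and 28% in endothelial-like cells. The members and the gene lists were chosen with earlier results of these data known, so no list's direction is independent evidence. Named genes are the 10 members, up to 2 genes in each direction of each list with the largest balanced log2 fold among those called with at least 10 CPM in either gate, and the 3 genes most like each member with at least 20 CPM in a class. Promoter windows are from RefSeq (GRCm38.p6), in which all 10 members matched. 1 gene among those closest in pattern to Gpx4 is not reported here.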

Additional observations from a re-analysis of the deposited data

Results flagged for a closer look

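For 9 of the 10 enzymes the gate difference varied between cell classes, by the edgeR test of the class by gate terms with Benjamini-Hochberg adjustment over all genes. The adjusted p was 3.76e-13 for Prdx5, 2.54e-11 for Gpx1, 1.3e-08 for Sod1, 3.43e-07 for Gpx4, 3.44e-07 for Prdx1, 6.01e-07 for Sod2, 6.97e-07 for Prdx3, 5.43e-05 for Txn1 and 0.000412 for Prdx2. Every class enters this fit through the same 4 libraries, and 41.2% of all genes tested passed it. Without MMPlow 1, 4 members were called.

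RNA of the 10 enzymes was also present in the barcodes that the filters removed. The 43228 removed barcodes of MMPlow 1 held 184180 UMIs of the 10 genes together (3468 CPM), and the 4136 of MMPlow 2 held 18766 UMIs (2928 CPM). The 9536 removed barcodes of MMPhigh 1 held 38401 UMIs (3612 CPM), and the 802 of MMPhigh 2 held 2091 UMIs (1637 CPM). These are counts with no control sample, and nothing is read from them about the removed barcodes.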

How the results depend on the processing

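The alternatives by cluster, by equal UMIs, by named classes only, by the default doublet rate, without the detection rule and with total UMIs were chosen after seeing the data. For the alternatives below no share of all genes is given here, so their counts of members are not read against a background. Over all retained cells, the 5 members called became 4 to 7 under the alternatives run, and with the stricter filter on cells 3 were higher and 4 lower. The 2 called in class-balanced sums became 6 with no filter on low counts, 4 with equal UMIs per class or the default doublet rate, and 1 with a filter at 10 CPM, by cluster, without the detection rule, with a looser or stricter cell filter, at resolution 2 or with total UMIs. With 1 library left out they were 0 to 5. The 33 pairs of member and class became 17 with clustering on all variable genes, 15 at resolution 2, 11 with the stricter filter (5 higher and 6 lower) and 21 with total UMIs, and 13 to 33 with 1 library left out. The 9 members of the interaction test became 4 to 9 with 1 library left out, 4 without MMPlow 1. The causes were not tested, although the stricter filter and resolution 2 tested fewer pairs (80 and 89 in place of 99).

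The labels give the libraries replicate numbers and do not say whether equal numbers are paired. Over genes, the deviation of library 1 from its gate mean correlated between the gates at 0.0487 in all cells and 0.000118 in balanced sums. Libraries of a gate also differed in depth and class make-up, so these correlations cannot decide whether they were paired. With the replicate block 5 members were called in all cells, 2 in balanced sums and 32 pairs within classes. The pairs were not the same: erythroid-like cells had 5 called in place of 8, granulocyte or mast-like cells 3 in place of 5 and megakaryocyte-like cells 5 in place of 1. The log2 fold of Gpx4 in all cells was -0.00046.

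Signs turned as follows among the comparisons made, mostly for folds that had not been called. Folds within a class were compared only where they had been called, and uncalled ones could also turn. With total UMIs, Gpx1 in megakaryocyte-like cells went from 0.08 to -0.06. In all cells, Gpx4 was -0.012 by DESeq2, -0.0061 with DESeq2 size factors, -0.0056 with no filter on low counts, -0.029 with total UMIs, -0.072 in named classes, -0.15 and -0.37 with the looser and stricter filters, and -0.10 to 0.10 with 1 library left out (-0.0056 without MMPlow 1, -0.0040 without MMPlow 2). Prdx1 was -0.049 and -0.36 with those filters, -0.12 in named classes, -0.067 without MMPhigh 1, and -0.096 (without MMPlow 1) to 0.17 with 1 library left out. Cat was -0.089 with the looser filter, Gpx1 -0.0095 and -0.0078 with the looser and stricter ones, and Prdx3, called at 0.40, -0.013 with the stricter one. In balanced sums, Gpx1 was -0.13 by cluster, -0.14 at resolution 0.5, -0.14 at resolution 2 and -0.016 with the stricter filter. Gpx4 there was -0.064 and -0.086 at these resolutions, -0.24 with the stricter filter and -0.0099 with total UMIs, and Prdx3 -0.012 at resolution 2. In macrophage-like cells at resolution 0.5, Txn1, Gpx1 and Gpx4, called at 0.48, 1.01 and 0.55, were -0.097, -0.052 and -0.085. Of 1113 gene-level comparisons with an alternative, 899 kept direction and side of the threshold, 154 lost and 28 gained a call, and 32 turned sign. The smallest sums held 13 to 37 MMPhigh cells per library in endothelial-like, epithelial or mesonephric-like and granulocyte or mast-like cells, and 28 and 29 MMPlow cells in germ cell-like cells.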

Other observations

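Haematopoietic progenitor-like cells appeared as a cluster of their own only at clustering resolution 2, with Angpt1, Ikzf2 and Hlf among its leading genes, and were not compared on their own above. Their cells are among the retained cells that were summed. The cluster held 358 and 412 cells of MMPlow 1 and 2 but 4 and 16 cells of MMPhigh 1 and 2. Prdx2 stood at 305, 309, 215 and 477 CPM in MMPlow 1, MMPlow 2, MMPhigh 1 and MMPhigh 2, from 332, 476, 5 and 260 UMIs. Gpx1 stood at 433, 433, 344 and 833 CPM, from 472, 667, 8 and 454 UMIs. Sod2 stood at 60.6, 74.7, 86.1 and 134 CPM, from 66, 115, 2 and 73 UMIs. The values of MMPhigh 1 rest on so few UMIs that no difference between gates could be read from them.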
